A study of Mus musculus with 4 samples.

Results

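The Id genes and the genes of bone morphogenetic protein (BMP) and transforming growth factor beta (TGF-beta) signaling were examined in muscle stem cells (MuSCs) of overloaded muscle. The 10 genes were taken by name, Id1, Id2, Id3, Smad6, Smad7, Bmpr1a, Tgfbr1, Tgfbr2, Acvr2b and Tgfb1, and each had a row among the 19353 genes of the count table. The MuSCs came from plantaris muscle of Pax7-CreERT2:Rosa-YFP mice, in which tamoxifen lets a Cre recombinase made by Pax7-expressing cells switch on yellow fluorescent protein (YFP). YFP-positive cells were sorted, 100 to a tube, so that a sort follows cells and their descendants that once expressed Pax7. There were 2 libraries of MuSCs from sham-operated muscle, where the skin was cut but no tendon, and 2 from overloaded muscle at 4 days after the tendons of the gastrocnemius and soleus muscles were cut. The mice carried the same alleles in both groups and received tamoxifen, and their age is not given in the sources used here. In other experiments of the study the sham muscle was the contralateral one. Whether sham and overloaded cells of these libraries came from legs of the same mice is not stated. Whether the tubes of a group hold cells of different mice is not given in the sources used here, so that p-values measure the spread between these tubes, which may be technical. The libraries were made by CEL-Seq2, which reads the 3′ end of each transcript and tags each captured RNA with a short random sequence (a unique molecular identifier, UMI), so that counts are of molecules and need no division by transcript length. In all, 269683 and 260488 UMIs were counted in the sham and 387955 and 483528 in the overloaded libraries, or 2697, 2605, 3880 and 4835 UMIs per cell.

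BMPs and TGF-beta are secreted ligands that bind pairs of type I and type II receptor kinases. BMP type I receptors phosphorylate Smad1, Smad5 and Smad9, and the TGF-beta and activin type I receptors phosphorylate Smad2 and Smad3, which enter the nucleus with Smad4. Id genes are well-known BMP target genes, and their proteins, helix-loop-helix factors without a DNA-binding region, hold E proteins away from MyoD and myogenin and so oppose myogenic differentiation. Smad6 and Smad7 are induced by the same pathways and inhibit them.

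Among the Id genes, Id3 was much lower in overloaded than in sham MuSCs, Id1 stood slightly higher without passing the test, and Id2 was at a similar level in both. The sham libraries held 241 and 209 Id3 UMIs, the overloaded ones 147 and 177. Both overloaded libraries therefore held fewer Id3 molecules than either sham library, although they held more UMIs in all. In CPM, UMIs scaled to a common library size by edgeR's TMM factors, Id3 went from 998 ± 72.3 to 370 ± 16.8 (SD, n = 2 each). Its log2 fold change was -1.43 (SE 0.16, 95% interval -1.77 to -1.10). In edgeR, whose quasi-likelihood p-values were adjusted over 7228 genes after Benjamini and Hochberg, the adjusted p was 2.92e-06, and the difference was far beyond the spread between replicates. The fall of Id3 was seen on every scale tried, at -0.47 for UMIs per tube without scaling (adjusted p = 0.0247 in edgeR) and it was at -0.59 under offsets fitted to each library so that fold changes do not depend on abundance, the offset fit (adjusted p = 0.00153 in edgeR). With each library left out in turn it stayed between -1.54 and -1.34.

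Id1 had 59 and 41 UMIs in sham and 110 and 147 in overloaded libraries. In normalized values, 257 and 186 CPM in sham stood against 286 and 298 in overloaded libraries, so that the groups did not overlap. The log2 fold change of 0.40 (SE 0.20, 95% interval -0.01 to 0.81, adjusted p = 0.108 in edgeR) missed the threshold of 0.1. It depended on the scale and on the libraries, since Id1 rose past the threshold per tube (1.36, adjusted p = 3.9e-04 in edgeR) and in the offset fit (0.81, adjusted p = 0.00193), but was at 0.15 without sham replicate 2 (adjusted p = 0.728). Id2 had 53 and 75 UMIs in sham and 114 and 146 in overloaded libraries. Its level was 285 ± 77.1 CPM in sham and 296 ± 0.53 in overloaded MuSCs (SD, n = 2 each), and the overloaded values lay between those of the sham libraries. The log2 fold change of Id2 was 0.06 (95% interval -0.35 to 0.47, adjusted p = 0.834 in edgeR), and it passed the threshold as higher in the offset fit (0.55, adjusted p = 0.0247) and per tube (1.02, adjusted p = 0.00198). Id4, with 23 and 23 UMIs in sham and 11 and 17 in overloaded libraries and named after its values were seen, fell by 1.67 on the log2 scale (SE 0.35, adjusted p = 9.35e-04 in edgeR), although not past the threshold per tube (-0.71, adjusted p = 0.153 in edgeR).

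**Figure D1:**
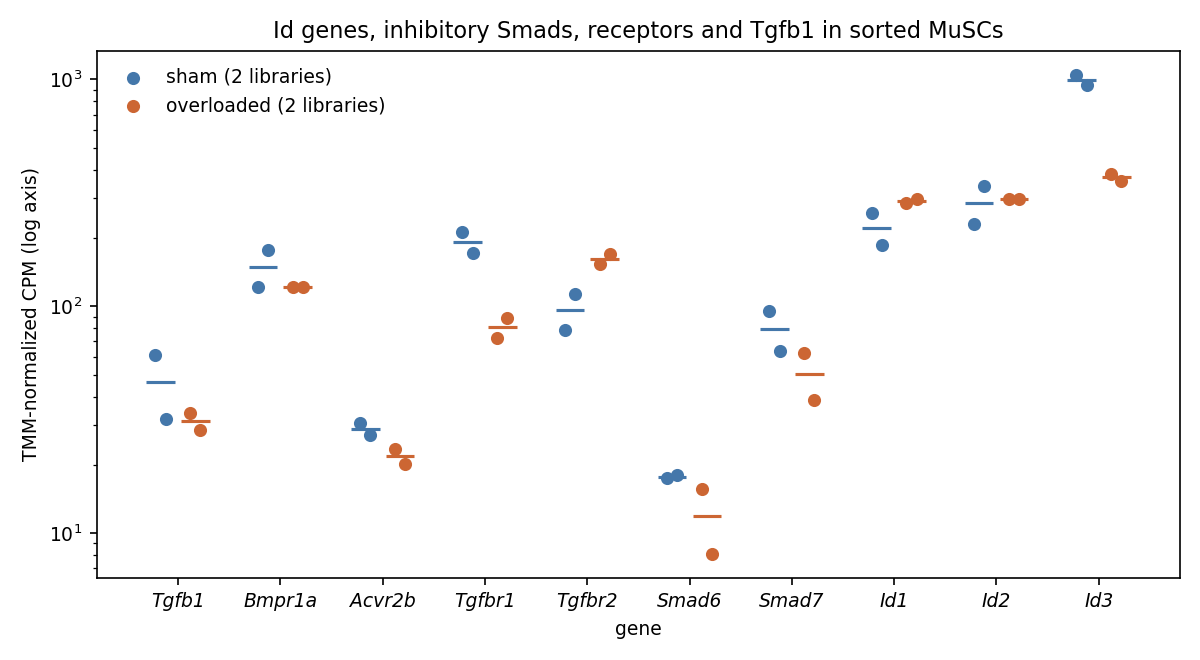
TMM-normalized CPM (log axis) of the 10 genes in each library, with sham libraries in blue, overloaded libraries in orange and a bar at the mean of each group. The groups are far apart for Id3 and Tgfbr1, which were lower in overloaded MuSCs. For Tgfbr2, which was higher, the groups are apart only by about the distance between the sham libraries (78.4 and 113 CPM), whereas Id2 and Bmpr1a overlap.

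Shares of the Id transcripts among UMIs of a library do not depend on a scaling factor that all its genes have in common. The offset fit, whose offsets vary with abundance, was not applied to these shares. The shares differed between the groups. Id3 made up 68.3% and 64.3% of the Id1, Id2 and Id3 UMIs in the sham libraries, out of 353 and 325, and 39.6% and 37.7% in the overloaded libraries, out of 371 and 470. Id3 was thus the main Id transcript of sham MuSCs, while the 3 genes were at more equal levels after overload. The share of Id1 was 14.7% ± 2.9 in sham and 30.5% ± 1.15 in overloaded MuSCs (SD, n = 2 each), and that of Id2 was 19.0% ± 5.7 and 30.9% ± 0.24 (SD, n = 2 each). The 3 shares of a library make up a whole, so that a lower share of Id3 raises the others together. They are therefore not separate results, and in CPM Id2 overlapped between the groups. All 3 shares were without overlap between the groups. The exact two-sided permutation test gave p = 0.333 for each, the smallest value that 2 libraries against 2 allow. The total of Id1, Id2, Id3 and Id4 went in opposite directions on the 2 scales. Their UMIs per tube were higher in both overloaded libraries (382 and 487 against 376 and 348 in sham). The first of these lay only just above the higher sham value. Their summed CPM was lower (993 and 986 against 1640 and 1580).

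**Figure D2:**
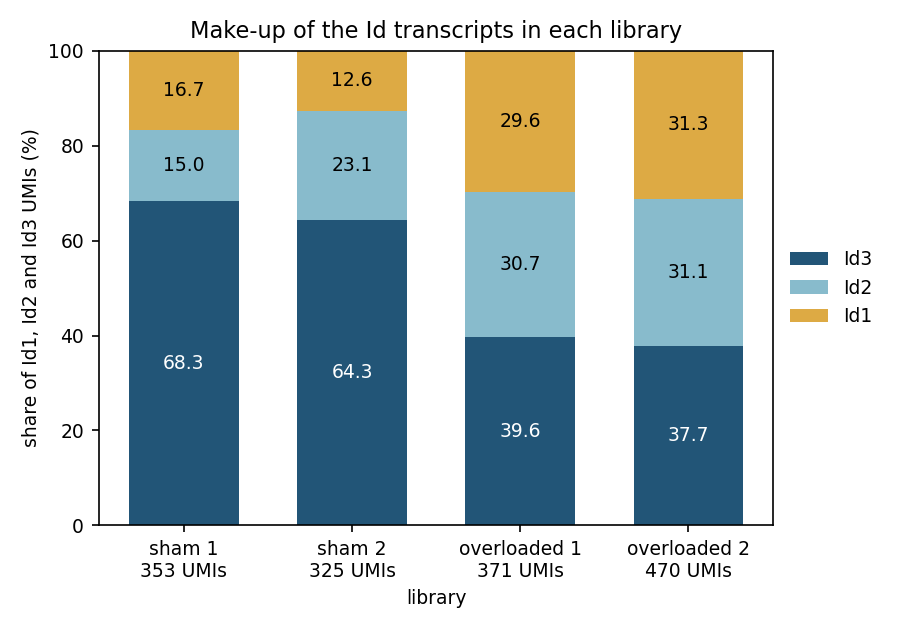
Share (%) of Id1, Id2 and Id3 among their summed UMIs in each library, with the number of UMIs under each bar. Id3 holds 68.3% and 64.3% in the sham libraries and 39.6% and 37.7% in the overloaded libraries.

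The promoters of Id3 and Id2 are shown because these genes of 1 family parted in the comparison. RefSeq windows on GRCm38, from 250 bases before to 50 bases after a transcription start, were found for 8 of the 10 genes. The capitals mark GGCGCC, a GC-rich motif bound by BMP-activated Smads, and CAGAC or its complement GTCTG, the core of the Smad binding element, none of which overlap each other. The window of Id3 is chr4:136143572-136143871 on the plus strand and that of Id2 is chr12:25096043-25096342 on the minus strand, each written 5′ to 3′ along its gene.
Id3: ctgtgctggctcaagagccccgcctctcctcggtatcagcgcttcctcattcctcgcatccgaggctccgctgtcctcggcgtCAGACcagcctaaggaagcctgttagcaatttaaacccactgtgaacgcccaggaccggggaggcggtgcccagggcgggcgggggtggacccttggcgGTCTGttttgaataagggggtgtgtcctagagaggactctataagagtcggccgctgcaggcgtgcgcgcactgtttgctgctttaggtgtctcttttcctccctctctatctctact
Id2: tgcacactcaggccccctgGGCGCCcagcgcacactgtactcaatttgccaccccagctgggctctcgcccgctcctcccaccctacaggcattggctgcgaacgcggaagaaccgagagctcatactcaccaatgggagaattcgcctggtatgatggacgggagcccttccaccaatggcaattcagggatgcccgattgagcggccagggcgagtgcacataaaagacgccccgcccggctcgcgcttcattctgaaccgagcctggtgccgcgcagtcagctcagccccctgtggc
The Id3 window held CAGAC or GTCTG at 2 places and no GGCGCC, and the Id2 window held GGCGCC at 1 place and no CAGAC or GTCTG. Of 32851 such mouse windows, 49.6% held CAGAC or GTCTG and 11.9% held GGCGCC. Whether Smads bind there was not measured. Id3 lies on chromosome 4 from 136143497 to 136145755, Id2 on chromosome 12 from 25093799 to 25097140 and Id1 on chromosome 2 from 152736251 to 152737410 of GRCm38, and none of these 3 genes overlaps another annotated gene.

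The receptors of TGF-beta moved in opposite directions. Tgfbr1, the type I receptor kinase, had 49 and 38 UMIs in sham and 28 and 44 in overloaded libraries. Relative to the other transcripts both overloaded libraries were lower, at 72.8 and 89.1 CPM against 213 and 172 in sham. Tgfbr1 fell by 1.24 on the log2 scale (SE 0.25, adjusted p = 6.76e-04 in edgeR), and it did so in the offset fit as well (-1.21, adjusted p = 5.76e-04), but not past the threshold per tube (-0.27, adjusted p = 0.507), where the counts of the groups overlap. Tgfbr2, the type II receptor that binds the ligand first, had 18 and 25 UMIs in sham and 59 and 84 in overloaded libraries. Its level rose, with 95.8 ± 24.7 CPM in sham and 162 ± 11.8 in overloaded MuSCs (SD, n = 2 each) and a log2 fold change of 0.76 (SE 0.25, adjusted p = 0.0218 in edgeR). The groups did not overlap in counts or in CPM, although the gap in CPM between 113 in sham and 153 in overloaded MuSCs was not much wider than that between the sham libraries (78.4 and 113). Per tube, where all tested genes had a median of 1.01 (0.05 under TMM), the rise was 1.73 (adjusted p = 5.78e-04 in edgeR). DESeq2 did not call it (adjusted p = 0.233), nor did edgeR without sham replicate 1 (0.49, adjusted p = 0.269).

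Of the UMIs of both receptors together, Tgfbr1 held 73.1% and 60.3% in the sham libraries and 32.2% and 34.4% in the overloaded libraries, a measure chosen after the values were seen. The more abundant transcript of the pair by UMIs was therefore Tgfbr1 in both sham libraries and Tgfbr2 in both overloaded libraries. This order holds under any scaling factor common to the genes of a library (exact two-sided permutation test of the share, p = 0.333, the smallest that the design allows). Their windows, chr4:47352972-47353271 on the plus strand for Tgfbr1 and chr9:116175314-116175613 on the minus strand for Tgfbr2, are shown with the same capitals, since this pair changed places.
Tgfbr1: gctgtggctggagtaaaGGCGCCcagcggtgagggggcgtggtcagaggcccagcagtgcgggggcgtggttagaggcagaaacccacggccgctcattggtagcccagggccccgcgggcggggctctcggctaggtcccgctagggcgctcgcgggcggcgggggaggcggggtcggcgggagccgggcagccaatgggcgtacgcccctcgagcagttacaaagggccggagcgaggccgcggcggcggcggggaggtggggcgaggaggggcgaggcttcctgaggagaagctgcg
Tgfbr2: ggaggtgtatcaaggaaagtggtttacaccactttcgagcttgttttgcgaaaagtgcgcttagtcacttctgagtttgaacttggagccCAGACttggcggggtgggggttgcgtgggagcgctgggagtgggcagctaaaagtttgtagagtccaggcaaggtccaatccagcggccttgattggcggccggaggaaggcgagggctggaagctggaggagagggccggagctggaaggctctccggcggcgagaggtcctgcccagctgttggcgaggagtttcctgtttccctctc
The Tgfbr1 window held GGCGCC at 1 place and no CAGAC or GTCTG, and the Tgfbr2 window held CAGAC at 1 place and no GGCGCC. Tgfbr1 has another RefSeq start site, not shown here, whose window held CAGAC at 1 place and no GGCGCC, as that of Tgfbr2 did. The difference between the windows shown thus does not hold for both start sites.

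The other receptors among the 10 genes were not past the threshold or were left out by the filter. Bmpr1a, a BMP type I receptor, had 28 and 39 UMIs in sham and 47 and 60 in overloaded libraries. It stood at 149 ± 38.7 CPM in sham and 122 ± 0.50 in overloaded MuSCs (SD, n = 2 each), with a log2 fold change of -0.29 (95% interval -0.80 to 0.23, adjusted p = 0.358 in edgeR), and per tube it was higher past the threshold (0.67, adjusted p = 0.0885 in edgeR). Acvr2b, a type II receptor for activins and myostatin, had 7 and 6 UMIs in sham and 9 and 10 in overloaded libraries, under the filter on low counts, so that a difference was not detectable at this depth. Both genes overlap an annotated gene on the other strand, and the strand setting of the counting is not given in the sources used here.

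The inhibitory Smads were scarce. Smad7 had 22 and 14 UMIs in sham and 24 and 19 in overloaded libraries, or 79.6 ± 22.9 and 50.4 ± 16.9 CPM (SD, n = 2 each). The groups lay apart by little, with 63.4 CPM as the lower sham value and 62.4 as the higher overloaded value, and Smad7 did not pass at a log2 fold change of -0.69 (95% interval -1.47 to 0.09, adjusted p = 0.139 in edgeR). It was past the threshold in the offset fit (-0.81, adjusted p = 0.0921), without sham replicate 2 (-0.99, adjusted p = 0.0581) and without overloaded replicate 1 (-1.02, adjusted p = 0.0609). It was not without sham replicate 1 (-0.39, adjusted p = 0.557) or overloaded replicate 2 (-0.31, adjusted p = 0.599). Smad7 was above 0 per tube (0.25, adjusted p = 0.606). Smad6 had 4 and 4 UMIs in sham and 6 and 4 in overloaded libraries, too few to pass the filter. Tgfb1, the founding TGF-beta ligand, had 14 and 7 UMIs in sham and 13 and 14 in overloaded libraries, and its log2 fold change of -0.59 was within the replicate spread (95% interval -1.49 to 0.31, adjusted p = 0.273 in edgeR).

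Of the 10 genes, 8 had enough counts to be tested, of which 1 was higher (Tgfbr2) and 2 were lower (Id3 and Tgfbr1) past the threshold. Across all 7228 tested genes, 25.8% were called higher and 26.3% lower, 52.1% in all, so that the share of these genes with a call was not above the background. Their CPM did not overlap between the groups for 5 genes, 2 higher (Id1 and Tgfbr2) and 3 lower (Id3, Tgfbr1 and Smad7), where 37.5% and 35.4% of all tested genes, 72.9% in all, were so placed. Their median log2 fold change was -0.44, beside 0.05 for all tested genes. That median over all genes was 0.33 with library sizes alone, 0.15 with upper-quartile factors and 1.01 for UMIs per tube, and fold changes per tube are to be read against it. In sham MuSCs the levels ran from Id3 (998 CPM) through Id2, Id1, Tgfbr1, Bmpr1a, Tgfbr2, Smad7, Tgfb1 and Acvr2b to Smad6 (17.8 CPM), and Id2, Id1, Tgfbr1 and Bmpr1a each overlapped the next gene down to Bmpr1a, as did Tgfbr2 and Smad7. In overloaded MuSCs Id3 was still the highest (370 CPM), followed by Id2 and Id1, which overlapped, then Tgfbr2, Bmpr1a, Tgfbr1, Smad7, Tgfb1, Acvr2b and Smad6 (11.9 CPM), with no other overlap between neighbours. In these libraries, fewer cells of a kind and less RNA per cell cannot be told apart.

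**Figure D3:**
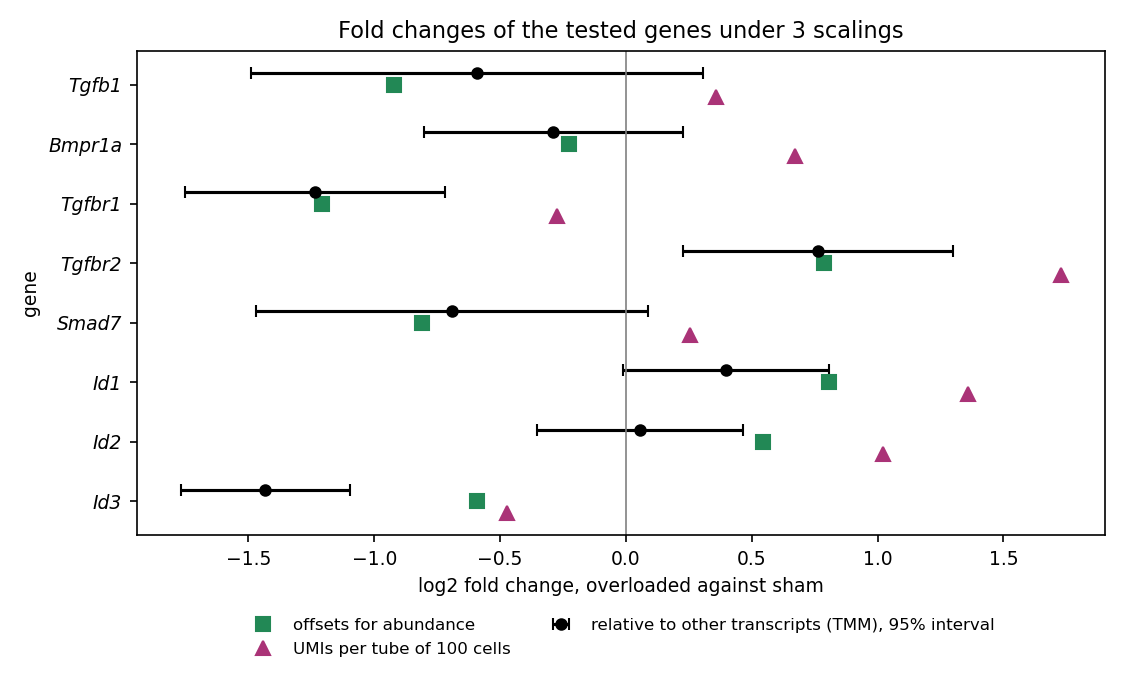
Log2 fold change of overloaded against sham MuSCs for the 8 tested genes, relative to the other transcripts (black, with 95% interval), under offsets for abundance (green squares) and as UMIs per tube of 100 cells (purple triangles). Id3 and Tgfbr1 lie below 0 and Tgfbr2 above 0 on all 3 scales, although Tgfbr1 is not past the threshold per tube.

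The rest of the pathway was read from lists of genes by role, from ligands to Smad regulators and Id genes, which with these 10 genes held 93 names, 77 of them in the file and 53 tested. Lists of target genes and of Id partners are not in these counts and follow after them. Past the threshold, 3 were higher and 26 lower in overloaded MuSCs. Outside the 10 genes, 2 of 45 tested genes were higher and 24 lower, with a median log2 fold change of -0.42 beside 0.05 for all tested genes, of which 25.8% were called higher and 26.3% lower. The share called in either direction was thus near the 52.1% of all tested genes, while the calls were mostly lower. DESeq2 called 2 higher and 15 lower (762 and 1049 of all genes), and the offset fit 2 and 17 (1497 and 1558). Per tube, a scale that moves nearly all genes up together (4481 of 7228 genes higher and 331 lower), 19 were higher and 7 lower. The counts of each list below are to be read against these counts over all genes on the same scale.

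Among ligands, Bmp2 and Bmp4, both BMP type ligands, were the only tested genes of a list of 12 with 6 in the file, and both fell. Bmp2 had 36 and 25 UMIs in sham and 11 and 16 in overloaded libraries, a log2 fold change of -2.13 (SE 0.34, adjusted p = 1.03e-04 in edgeR), and it fell per tube as well (-1.17, adjusted p = 0.0233). Bmp4, with 51 and 72 UMIs in sham and 46 and 66 in overloaded libraries, fell by 1.10 (adjusted p = 7.27e-04 in edgeR), but per tube its counts overlapped (-0.13, adjusted p = 0.71). Of 6 tested TGF-beta and activin ligands, Gdf15, a divergent TGF-beta family member that rises in stressed cells, fell by 1.71 (adjusted p = 4.62e-05 in edgeR) and the other 5 did not pass the threshold, whereas per tube 3 of the 6 were higher and 1 lower. Tgfb2, the most abundant ligand of that list, was at 236 ± 19.2 CPM in sham and 205 ± 11.9 in overloaded MuSCs (SD, n = 2 each, adjusted p = 0.404 in edgeR), and per tube it was higher (0.75, adjusted p = 0.0201).

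Of 7 tested genes for the storage and release of TGF-beta, 4 were lower (Ltbp4, Ltbp1, Itgav and, named after its values were seen, the protease gene Furin) and 1 higher (Itgb6). The lower genes numbered 2 with DESeq2, in the offset fit, with library sizes alone and with upper-quartile factors, and per tube 3 were higher and 1 lower. Ltbp4, which tethers latent TGF-beta to the matrix, had 156 and 147 UMIs in sham and 86 and 104 in overloaded libraries. It fell by 1.63 on the log2 scale (SE 0.17, adjusted p = 1.08e-06 in edgeR) and was lower per tube (-0.67, adjusted p = 0.00859). Ltbp1, of the same family, fell by 1.04 (adjusted p = 2.18e-04 in edgeR), although not past the threshold per tube (-0.07, adjusted p = 0.807). The alpha-v integrin Itgav, whose dimers release TGF-beta from its latent complex, was lower (-0.46, adjusted p = 0.0773 in edgeR), but it missed the threshold when library sizes were used as they are (-0.18, adjusted p = 0.494), in the offset fit (-0.16, adjusted p = 0.592) or with DESeq2 (adjusted p = 0.374). Thbs1, thrombospondin 1, did not pass it (-0.23, adjusted p = 0.279 in edgeR) and was higher past it in the offset fit (0.42, adjusted p = 0.0363). Itgb6, the beta subunit of an integrin that activates TGF-beta and named here after its values were seen, had no UMI in sham and 12 and 20 in overloaded libraries, at least 5.35-fold higher when the sham group is set to a floor of 3 counts in all, which covers counting error only. It was not called in the offset fit (adjusted p = 0.451 in edgeR).

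Large falls were found among secreted antagonists and coreceptors. Chrdl2, a chordin-like BMP-binding protein, had 114 and 126 UMIs in sham and 36 and 45 in overloaded libraries. Its log2 fold change of -2.53 (SE 0.19, adjusted p = 1.15e-07 in edgeR) was -1.56 per tube (adjusted p = 1.21e-04), so that overloaded tubes held far fewer of its molecules. Of 6 tested antagonists 4 were lower, 2 with DESeq2 and in the offset fit, the others being Twsg1 (-0.81, adjusted p = 0.00736 in edgeR), Nbl1 (-0.76, adjusted p = 0.0024) and Dcn, decorin (-0.38, adjusted p = 0.0851). Per tube, Twsg1, Nbl1 and Dcn had log2 fold changes of 0.15, 0.21 and 0.58, of which that of Dcn was past the threshold (adjusted p = 0.0237 in edgeR). DESeq2 called neither Twsg1 (adjusted p = 0.134) nor Dcn (adjusted p = 0.379), and Nbl1 was not called in the offset fit (-0.30, adjusted p = 0.2 in edgeR). Tgfbr3, betaglycan, which presents TGF-beta to its type II receptor, had 162 and 137 UMIs in sham and 68 and 83 in overloaded libraries. It fell under TMM (log2 fold change -1.94, SE 0.17, adjusted p = 3.7e-07 in edgeR), per tube (-0.98, adjusted p = 0.00108) and in the offset fit (-1.37, adjusted p = 6.54e-07), opposite to Tgfbr2. Bambi, a decoy receptor named after its values were seen, fell from 86.7 ± 11.9 to 22.8 ± 0.80 CPM (SD, n = 2 each, log2 fold change -1.91, adjusted p = 7.53e-04 in edgeR), and the other 2 tested genes of the 4 in its list did not pass the threshold.

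Among all tested type I receptors, Tgfbr1 was the only gene of 4 past the threshold under TMM. Per tube 3 were higher and 0 lower, where 4481 and 331 of all 7228 tested genes were. Acvr1, with the most UMIs over all libraries, stood at 136 ± 13.2 and 136 ± 19.6 CPM (SD, n = 2 each, adjusted p = 0.96 in edgeR), and per tube it was higher past the threshold (0.99, adjusted p = 0.0187). In sham, Tgfbr1 and Bmpr1a had higher mean CPM (193 and 149). Of 3 tested type II receptors, Tgfbr2 rose, Bmpr2 fell (log2 fold change -0.75, adjusted p = 0.00374 in edgeR) and the other did not pass. Bmpr2, the main BMP type II receptor, had 104 and 80 UMIs in sham and 105 and 107 in overloaded libraries, and its log2 fold change was -0.22 in the offset fit (adjusted p = 0.358) and 0.20 per tube (adjusted p = 0.436).

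None of the 5 tested signal-carrying Smads passed the threshold under TMM with edgeR, at a median log2 fold change of -0.22. Of these, 0 had an unadjusted p under 0.05 in edgeR, DESeq2 or limma-voom. Per tube 4 were higher, as were 4481 of all 7228 tested genes. Smad4, with the most UMIs over all libraries, was at 204 ± 0.52 CPM in sham and 172 ± 26.1 in overloaded MuSCs (SD, n = 2 each, log2 fold change -0.24, adjusted p = 0.374 in edgeR), and per tube it was higher past the threshold (0.73, adjusted p = 0.0438). Smad5 had a higher mean in sham, at 223 CPM. Of 12 tested inhibitory Smads and Smad regulators, 9 were lower and 1 was higher, with a median of -0.77, where 26.3% and 25.8% of all tested genes were so called. The difference between these lists was not tested. Pmepa1, which is induced by TGF-beta and holds back receptor-activated Smads, had 258 and 267 UMIs in sham and 198 and 196 in overloaded libraries. It fell by 1.36 on the log2 scale (SE 0.17, adjusted p = 8.51e-06 in edgeR) and was lower per tube (-0.41, adjusted p = 0.0264). The Smad corepressors Skil and Tgif1 fell under TMM (-1.12, adjusted p = 5.14e-05, and -1.15, adjusted p = 3.96e-05 in edgeR) and in the offset fit (-0.40, adjusted p = 0.0343, and -0.54, adjusted p = 0.00981), but neither passed the threshold per tube. Fkbp1a, which encodes the FKBP12 protein that binds type I receptors and also calcium release channels, was the gene that rose (log2 fold change 0.80, SE 0.17, adjusted p = 0.00109 in edgeR, named after its values were seen). For this list DESeq2 called 4 lower and 1 higher, and the counts per tube were 3 higher and 1 lower.

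**Figure D4:**
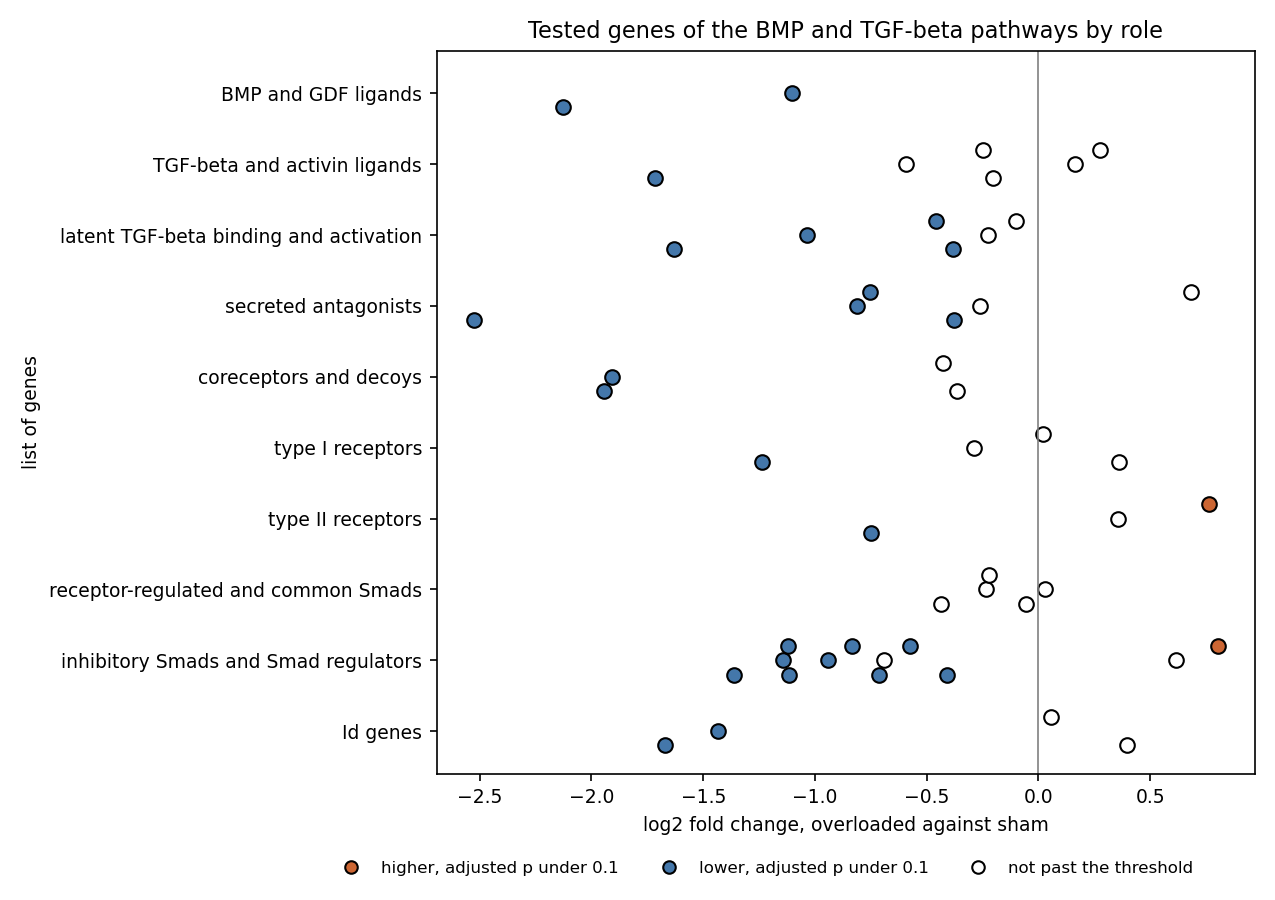
Log2 fold change of each tested gene of the lists from ligands to Id genes, without the target and Id partner lists, filled where the adjusted p of edgeR's quasi-likelihood test was under 0.1 (orange higher, blue lower), with points spread vertically only for legibility and Itgb6 left out because it had no sham count. Chrdl2, at -2.53, lies farthest left, and of the genes drawn Fkbp1a and Tgfbr2 are the filled points to the right of 0.

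Known target genes did not move as a block. Of 3 tested BMP targets outside the Id genes, Runx2 rose, Bambi fell and Smad7 did not pass. Runx2, a transcription factor of bone formation, had 2 and 4 UMIs in sham and 39 and 57 in overloaded libraries, and with so few sham molecules its log2 fold change is loosely set (95% interval 2.03 to 3.96, adjusted p = 6.75e-05 in edgeR). Runx2 overlaps genes on the other strand, Supt3 among them. Of 16 tested TGF-beta targets, 3 were higher and 10 lower past the threshold, where 25.8% and 26.3% of all tested genes were so called. Per tube 7 were higher and 3 lower (4481 and 331 of all 7228 tested genes), and in the offset fit 7 and 7 (1497 and 1558). Fn1, fibronectin, had 1 and 3 UMIs in sham and 94 and 99 in overloaded libraries. It rose, by a fold that so few sham molecules set loosely as well (95% interval 3.69 to 5.47 on the log2 scale, adjusted p = 4.61e-07 in edgeR). Acta2, smooth muscle actin, rose by 0.95 (adjusted p = 1.73e-04 in edgeR), and Klf10, a TGF-beta-inducible zinc finger factor named after its values were seen, by 0.59 (adjusted p = 0.057), although not with DESeq2 (adjusted p = 0.371). Klf10 also lost its call without sham replicate 1 (0.55), sham replicate 2 (0.54) or overloaded replicate 2 (0.55), at log2 fold changes about as large. In contrast, Spsb1, which promotes decay of the type II receptor, fell (log2 fold change -1.81, adjusted p = 6.23e-07 in edgeR), as did Junb, an AP-1 subunit (-1.70, adjusted p = 6.67e-07). Per tube Spsb1 was at -0.85 (adjusted p = 0.00339) and Junb at -0.75 (adjusted p = 2e-04). Col3a1, the most abundant gene of the list, was lower under TMM (-0.53, adjusted p = 0.013 in edgeR) and higher in the offset fit (0.66, adjusted p = 7.38e-05) and per tube (0.42, adjusted p = 0.00539), so that its direction depended on the scale.

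The list of Id partners holds E proteins and myogenic factors. All 7 genes had UMIs in both overloaded libraries, but a myogenic factor left untested had 1 and 0 UMIs in sham. Tcf12, an E protein that pairs with MyoD, had 54 and 44 UMIs in sham and 115 and 150 in overloaded libraries, a log2 fold change of 0.47 (adjusted p = 0.048 in edgeR). Tcf12 lost its call with DESeq2 (adjusted p = 0.319) and without sham replicate 1 (0.56, adjusted p = 0.136 in edgeR) or sham replicate 2 (0.32, adjusted p = 0.421), and it overlaps genes on both strands. Tcf4, another E protein, was lower under TMM (-0.80, adjusted p = 8.47e-04 in edgeR) but at 0.08 in the offset fit (adjusted p = 0.691) and 0.15 per tube (adjusted p = 0.41). In all, 2 of 6 tested partners rose, Myog (log2 fold change 1.43, adjusted p = 9.96e-06 in edgeR) and Tcf12, 1 fell and 3 did not pass, Myf5, the most abundant, among them (0.10, adjusted p = 0.675). Myf5 was called higher in the offset fit (1.08, adjusted p = 2.33e-06 in edgeR), per tube (1.05, adjusted p = 9.93e-05) and when library sizes were used as they are (0.37, adjusted p = 0.0557). Of this list, 4 were higher and 0 lower in the offset fit, where 1497 and 1558 of all 7228 tested genes were. The counts were 5 and 0 per tube (4481 and 331 of all) and 1 and 1 with DESeq2 (762 and 1049).

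The genes nearest to each Id gene over the 4 libraries were found by root mean square distance of centred log2(CPM + 1) among 4714 tested genes with a mean of at least 20 counts. They were Cdc16, Top2b and Mtch2 for Id1 (distances 0.0073, 0.0119 and 0.0227), Krr1, Utp6 and 1810022K09Rik for Id2 (0.0212, 0.0272 and 0.0317) and Tra2a, Sqstm1 and Msc for Id3 (0.0213, 0.0306 and 0.0357). With 4 libraries such nearness says little more than that the log2 fold changes were alike, as those of Tra2a (-1.46), Sqstm1 (-1.43) and Msc (-1.38) were to that of Id3.

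The labelled cell type was checked against marker genes. All 10 MuSC markers were detected in every library, and their summed UMIs were 1662 and 1413 in sham and 2048 and 2318 in overloaded libraries. Sdc4 had the most UMIs over all libraries (1426), but in the overloaded ones Myf5 had more (388 and 467 against 375 and 345). Relative to the other transcripts the sum of the 10 markers was lower after overload, at 7230 and 6400 CPM in sham and 5320 and 4690 in overloaded libraries. Of these 10 markers 5 were lower and 2 higher past the threshold in edgeR under TMM. Of all tested genes, 26.3% and 25.8% were so called. The median log2 fold change of the markers was -0.56, beside -0.42 for the pathway genes outside the 10 genes. In UMIs without scaling, 8 of the 10 markers had more after overload.

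RNA of genes listed as markers of other cell types was also present and, gene by gene, was mostly higher in the overloaded libraries. Mean CPM was higher after overload for 10 of 10 leukocyte, 8 of 8 myofiber, 8 of 10 endothelial and 6 of 8 mural markers, and for 2 of 9 fibroblast markers in the file. The 10 leukocyte markers summed to 2 and 6 UMIs in sham and 62 and 142 in overloaded libraries (8.71 and 27.2 against 161 and 288 CPM), with 7 of them at 0 in both sham libraries. Lyz2, their most abundant, had 0 and 0 UMIs in sham and 17 and 38 in overloaded libraries, at least 9.19-fold higher. The 8 myofiber markers, led by Acta1 (827 UMIs in all), summed to 389 and 199 UMIs in sham and 1189 and 1437 in overloaded libraries (1690 and 901 against 3090 and 2910 CPM), and Myh1 and Myh2 were at 0 in sham.

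The 10 endothelial markers summed to 30 and 20 UMIs in sham and 54 and 73 in overloaded libraries, or 131 and 90.6 against 140 and 148 CPM, with Cldn5 and Egfl7 at 0 in sham. Tek, the gene of this list with the most UMIs over all libraries, was lower, with 10 and 12 UMIs in sham and 5 and 11 in overloaded libraries (log2 fold change -1.41, adjusted p = 0.0154 in edgeR, adjusted p = 0.216 with DESeq2). It did not lead in the overloaded libraries, where Cdh5 had 14 and 11 UMIs. The other 9 endothelial markers each had more UMIs after overload, and without Tek the list summed to 20 and 8 UMIs in sham and 49 and 62 in overloaded libraries (87.1 and 36.2 against 127 and 126 CPM).

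The 8 mural cell markers summed to 352 and 317 UMIs in sham and 606 and 849 in overloaded libraries (1530 and 1440 against 1580 and 1720 CPM), while Myh11 was at 0 in sham. Acta2 (1073 in all) was the largest part in the overloaded libraries, and Notch3 was the largest in sham. Of 4 tested mural markers 2 were higher (Acta2 and Rgs5) and 2 lower (Notch3 and Tagln), so that the sum mixed both directions, and without Acta2 it was lower in CPM (1030 and 942 against 650 and 721). Named after its values were seen, Rgs5, a pericyte gene, had 13 and 4 UMIs in sham and 38 and 86 in overloaded libraries (log2 fold change 1.88, adjusted p = 0.00162 in edgeR). Notch3, likewise chosen, which MuSCs also express, had 175 and 163 against 143 and 170 (-1.07, adjusted p = 5.29e-05 in edgeR). Its call was lost in the offset fit (-0.29, adjusted p = 0.108) and per tube (-0.11, adjusted p = 0.601).

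Of the fibroblast list 9 of 10 genes were in the file. They summed to 1244 and 1136 UMIs in sham and 1435 and 1671 in overloaded libraries, and in CPM their sum was lower after overload (5410 and 5150 against 3730 and 3380). The most abundant gene was Col3a1 (2270 UMIs in all), which MuSCs also express, and the defining marker Pdgfra was at 0 and 0 in sham and 2 and 0 in overloaded libraries. Ly6a, which encodes Sca-1, a marker shared with endothelial cells and named after its values were seen, had 1 and 0 UMIs in sham and 22 and 41 in overloaded libraries, 31.6-fold higher with a counting interval of 5.47 to 1270. The sort was by YFP. Id1, Tgfbr2, Itgb6, Fkbp1a, Runx2, Fn1, Klf10, Acta2, itself a mural marker, Tcf12 and Myog had higher values in the same libraries as the leukocyte and myofiber markers, most endothelial and mural markers and Ly6a. Whether the marker RNA came from other cells or from the YFP-positive MuSCs and their descendants was not tested. The part of any such other cells in these values was not tested either.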

How the data were processed

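RNA-seq libraries of YFP-sorted MuSCs (100 cells per tube, CEL-Seq2) were compared between sham and overloaded plantaris muscle. The authors extracted barcodes and UMIs with UMI-tools (version 1.0.0), aligned reads to GRCm38 with HISAT2 (version 2.1.0), assigned them with featureCounts (version 1.6.4), and deposited the count of UMIs per gene and library, not normalized. Because a UMI has 6 bases, 4096 are possible.

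From these counts, TMM factors and the quasi-likelihood test were computed with edgeR (version 4.0.16, R version 4.3.3) after filterByExpr (minimum count 10, minimum total 15), which kept 7228 genes. Adjusted p-values are Benjamini-Hochberg values over these, with the study's threshold of 0.1. A count of 3 corresponds to 11.1 and 11.5 CPM in the sham and 7.73 and 6.2 CPM in the overloaded libraries. DESeq2 (version 1.42.0), limma-voom (limma version 3.58.1), other scalings, filters and left-out libraries were alternatives. Python version 3.11.15 with scipy version 1.17.1 gave the permutation tests. The tests were tried on simulated data. Gene positions are from GENCODE M21.

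The 10 genes and the lists were chosen with earlier results of these data known. The rule for named genes took the most abundant gene of each list and up to 3 more, those with the largest changes among genes past the threshold whose mean count was 20 or above and whose groups did not overlap. Of the marker lists only the most abundant gene was named by rule. Abundance here means UMIs summed over all libraries. A further marker list is not reported here. For Id1, Id2 and Id3 the 3 nearest genes were named. Exceptions are stated as chosen after their values were seen. Of 62 genes so named, 24 overlap a gene on the other strand. The Cont and Ope libraries share replicate numbers, but the labels do not tie equal numbers to a shared animal or day.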

Additional observations from a re-analysis of the deposited data

How the results depend on the processing

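Of 59 tested genes named by the rule or singled out with a fold change, 19 kept their direction and their side of the threshold under all 18 alternatives. The scale was the choice that moved most. Per tube without scaling, 4481 genes were higher and 331 lower (1868 and 1898 under TMM), 4 of the 10 genes were higher and 1 lower, and 19 pathway genes outside them were higher and 7 lower. With DESeq2, 762 genes were higher and 1049 lower, 0 of the 10 genes were higher (Tgfbr2 being lost, and 0 at an unadjusted p under 0.05) and 15 pathway genes were lower. Under the abundance offsets 3 of the 10 genes were higher, and 2 with library sizes alone, upper-quartile factors, no filter, thinned counts or the UMI collision correction, Id1 being added. Pathway genes called higher numbered 4 without a filter and with at least 10 counts in every library of 1 group. With 1 library left out, 1360 to 1668 genes were higher and 1489 to 1720 lower, 1 to 2 of the 10 genes higher and 2 to 3 lower, and 2 to 4 pathway genes higher and 19 to 21 lower. The lone library of a group was then assumed to vary like the other group. The shares of Id1, Id2 and Id3 moved by 13.7 to 17.8, 7.82 to 15.9 and -29.6 to -25.7 percentage points with 1 library left out, and that of Id3 by -24.7 with Id4 in the denominator, against 15.8, 11.9 and -27.6 with all libraries. The cause of these changes was not tested.

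Log2 fold changes that changed sign per tube were those of Bmpr1a (0.67), Bmpr2 (0.20), Col3a1 (0.42), Dcn (0.58), Furin (0.59), Itgav (0.51), Nbl1 (0.21), Sdc4 (0.028), Smad4 (0.73), Smad7 (0.25), Tcf4 (0.15), Tgfb1 (0.36), Tgfb2 (0.75), Thbs1 (0.73) and Twsg1 (0.15). Under the offsets they were those of 1810022K09Rik (-0.066), Col3a1 (0.66), Dcn (0.21), Furin (0.19), Krr1 (-0.026), Sdc4 (0.12), Tcf4 (0.078), Tgfb2 (0.12), Thbs1 (0.42) and Utp6 (-0.071). With library sizes alone they were those of Smad4 (0.043), Tgfb2 (0.073) and Thbs1 (0.051). The alternative filter on counts within 1 group kept 7572 genes, more than the 7228 of the main filter. Under that alternative the signs changed for 1810022K09Rik (-0.067), Acvr1 (-0.050), Id2 (-0.011), Krr1 (-0.011) and Utp6 (-0.055). With 1 library left out the signs of 1810022K09Rik (-0.31 to 0.29), Acvr1 (-0.11 to 0.17), Id2 (-0.23 to 0.32), Krr1 (-0.25 to 0.35), Utp6 (-0.30 to 0.30) and Myf5 (-0.16 to 0.33) changed, without sham replicate 1 for all of these but Myf5 (sham replicate 2) and also without overloaded replicate 2 for Acvr1. The sign of 1810022K09Rik also changed with DESeq2 (-0.0027) and the collision correction (-0.0050), and that of Utp6 with thinned counts (-0.15).

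With the replicate number as a block, 1806 genes were higher and 1864 lower, 1810022K09Rik was at -0.0028, and no call among the 10 genes or the pathway counts changed. The deviations of same-numbered libraries correlated by -0.0349, so that equal numbers were not taken as pairs. At the depth of these libraries the main filter leaves Smad6 and Acvr2b untested. Without a filter all 19353 genes were fitted, and neither of the 2 was called.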
